A study of Mus musculus with 8 samples.

Results

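The margin examined here is the band of brain tissue that lies just outside dense GL261 glioma, within 4 image bins of it. Transcripts of a panel of 100 genes were located as single molecules in 8 mouse brain sections, each file of positions was laid out in square bins of 360 pixels, and bins with at least 20 gene molecules counted as tissue. A bin was dense when it held at least 100 molecules of Mki67 and Birc5 together, and the margin consists of the tissue bins that were not dense and lay under 4 bins (Euclidean distance on the bin grid) from the nearest dense bin. These bins were therefore chosen by measured values, the molecules of Mki67, Birc5 and all genes in a bin and its distance from dense bins. This gave 1595 margin bins of 8958 tissue bins in the 4 sections that had not been given CpG-STAT3ASO, and of 18080 in all 8 sections. Their numbers were 364 and 402 in anti-PD1 sections 1 and 2, against 523 and 306 in PBS sections 1 and 2. Bins under 2, from 2 to under 3 and from 3 to under 4 bins out are called step 1, step 2 and step 3, with 869, 416 and 310 bins. Levels below are molecules per bin, and differences are given on the log2 scale of a gene's share of the molecules, unless stated otherwise.

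The mice had been implanted with GL261, a mouse glioma cell line, had received 4 intracranial treatments of anti-PD1 (an antibody against the checkpoint receptor PD-1) or of PBS, and were killed on day 21. CpG-STAT3ASO, alone or combined with anti-PD1, was given in the other 4 sections. There were 2 sections per treatment. Whether sections were cut from separate animals is not stated, so a p here measures only the spread between sections. Strain, age, section level, thickness and pixel size are not stated either.

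At the border of a glioma, tumour cells that leave the mass lie among resident microglia and blood-derived macrophages. Interferon gamma from T cells and NK cells, and type I interferon from many cells, switch on the chemokines CXCL9 and CXCL10, which draw activated T cells, and PD-L1, which restrains them. Ki-67 (Mki67) and survivin (Birc5) mark dividing cells of any type. Their transcripts therefore cannot tell cycling tumour cells from other dividing cells, and they miss tumour cells outside the cycle.

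The 4 sections held 4189535 to 6987530 gene molecules each, and codes read as false positives came to 0.106 to 0.152% of all molecules. The panel has no gene of the neuron, oligodendrocyte, astrocyte or endothelium lists, so loss of normal brain cells at the margin could not be read directly. In the margin, 77 of the 100 genes lay above the false-positive level in all 4 sections, set at the 90th percentile of molecules over those codes. Cxcl10, Nkg7 and Ccl5 were among them, Cd3d, the CD3 chain that defines T cells, exceeded this level in 2 of the 4 sections, and Tbx21 and Ly6g, the neutrophil gene, did in none.

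Mki67 and Birc5 chose the bins, so their levels only describe the margin. Together they stood at 444 molecules per bin in the dense edge (the 2986 dense bins under 4 bins from other tissue), 37.0 ± 4.03 at step 1, 12.3 ± 3.27 at step 2, 7.86 ± 3.21 at step 3 and 0.964 ± 0.422 in distant tissue 10 or more bins out (SD, n = 4 sections). These transcripts were thus seen at every step, but unevenly over bins. At step 3 the median bin held 1 and 1 of them in anti-PD1 sections 1 and 2, and 2 and 4 in PBS sections 1 and 2. Bins with under 10 of these molecules made up 24.7% of step 1, 67.4% of step 2, 80.3% of step 3 and 98.9% of distant tissue. All gene molecules together numbered 5389 ± 1046 per bin in the dense edge, 1145 ± 323 at step 1, 874 ± 166 at step 2, 779 ± 119 at step 3 and 663 ± 85.8 in distant tissue. A fall in molecules per bin cannot tell fewer cells of a type from less RNA per cell.

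The limits of the rule cut through a gradient, described here with bins pooled over the 4 sections. Such values differ from means of sections and depend on which sections supplied the bins. The 56 margin bins with 90 to 99 molecules of Mki67 and Birc5 held 212 of Cxcl10 and 102 of Gpnmb per bin, and the 68 dense bins with 100 to under 110 held 150.1 and 158. At the outer limit, the 310 bins at 3 to under 4 bins held 24.4 Cxcl10, 2.69 Ccl5 and 0.519 Nkg7 molecules per bin, and the 276 bins at 4 to under 5 bins held 16.8, 1.63 and 0.199. Only 8 margin bins had 20 to 29 gene molecules.

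The margin took up 16.4 and 17.1% of the tissue bins in anti-PD1 sections 1 and 2, against 23.6 and 14.2% in PBS sections 1 and 2. The anti-PD1 mean was 16.7% and the PBS mean 18.9% (difference -2.17 points, exact two-sided permutation p = 1, where 6 assignments allow no p below 0.333). It was made of several kinds of places. The outer margin along the main mass held 830 bins (52.0%), 355 bins (22.3%) lay around dense clusters of under 5 bins, 242 (15.2%) were gaps enclosed in dense tumour, and 168 (10.5%) lay at the edge of the imaged tissue.

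**Figure D1:**
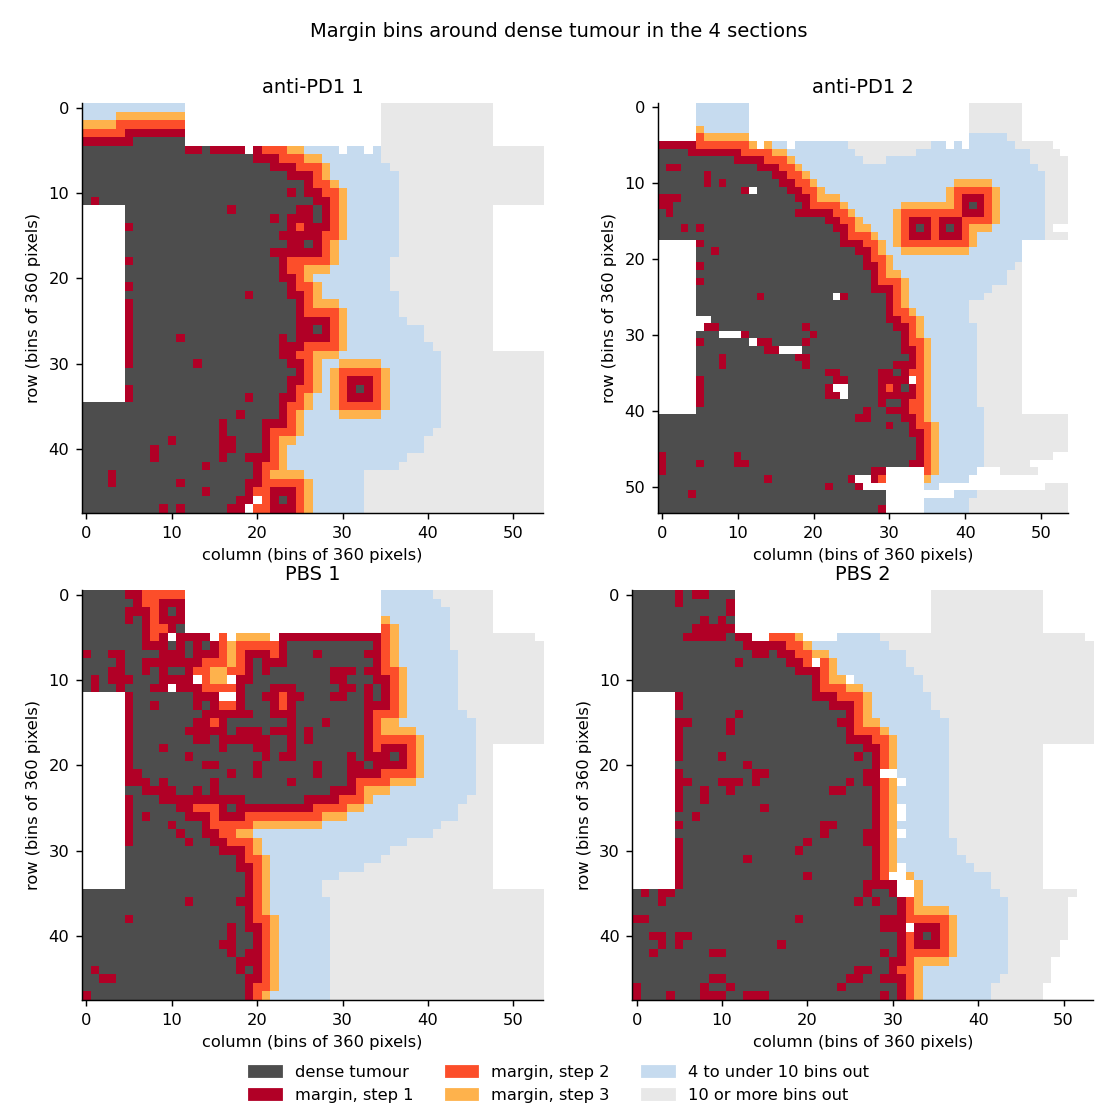
Maps of the 4 sections (anti-PD1 above, PBS below) in bins of 360 pixels, coloured by class: dense tumour, margin steps 1 to 3, 4 to under 10 bins out, and 10 or more bins out; white has no tissue or no image. The margin follows the main mass as a band, rings small dense clusters, as in anti-PD1 section 2, and fills gaps inside the mass, with 45 and 68 such bins in anti-PD1 sections 1 and 2, against 41 and 88 in PBS sections 1 and 2.

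These kinds of places differed in what they held. Gpnmb, a transmembrane glycoprotein gene of macrophages and some tumour cells, averaged 117 ± 72.0 molecules per bin in the enclosed gaps, 17.5 ± 14.2 in the outer margin and 4.54 ± 3.21 around small dense clusters (SD, n = 4). Cxcl10 averaged 106 ± 62.8 in the gaps, 66.7 ± 52.6 in the outer margin and 26.7 ± 24.6 around small clusters. Sirpa, which encodes the receptor for the "don't eat me" signal CD47 and is expressed by myeloid cells and neurons, ran the other way, with 7.11 ± 4.51 in the gaps, 77.0 ± 27.3 in the outer margin and 127 ± 45.3 around small clusters. By these means, the bins around small clusters held the least Gpnmb and Cxcl10 and the most Sirpa of these 3 kinds. In PBS section 1, however, Sirpa was lower around small clusters (77.51) than in the outer margin (84.35). Mki67 plus Birc5 also differed between them, with 49.3 ± 5.19 in the gaps, 23.8 ± 3.64 in the outer margin and 10.3 ± 7.61 around small clusters, and the kinds were not matched for it. Ccl5, a chemokine gene of T cells and macrophages, averaged 3.11 in the gaps, 6.99 in the outer margin and 5.75 around small clusters.

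The next question was how steeply each gene fell from the dense edge across the margin. Cxcl10 had 111, 24.2, 48.2 and 155 molecules per bin at step 1 in anti-PD1 sections 1 and 2 and PBS sections 1 and 2. At step 3 it had 20.5, 1.87, 6.89 and 98.0 in the same order, and in distant tissue 0.306, 0.274, 0.885 and 6.73. PBS section 2 was highest and anti-PD1 section 2 lowest at each of these distances, and in every section step 3 lay below step 1 and above distant tissue. Its dense edge held 487, 149.5, 240 and 667.

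Ccl5 stood at 13.5, 1.72, 5.16 and 6.67 molecules per bin at step 1, and at 2.61, 0.354, 1.83 and 8.38 at step 3, in the same order of sections. In PBS section 2 it was thus as high at step 3 as at step 1, unlike in the other 3. Nkg7, a granule protein gene of cytotoxic T cells and NK cells, had 3.30, 0.460, 1.24 and 1.71 at step 1 and 0.724, 0.177, 0.360 and 1.04 at step 3. In distant tissue it had 0.0579, 0.0158, 0.0166 and 0.437. Nkg7 was sparse even where highest, and its margin total came to 739, 122, 512 and 465 molecules.

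The PD-L1 gene Cd274, also interferon-induced, kept more of its step 1 level at step 3 than Cxcl10 did. It had 28.6, 7.26, 13.7 and 19.7 molecules per bin at step 1 and 23.5, 2.43, 5.76 and 16.0 at step 3. In anti-PD1 section 1 and PBS section 2 step 3 held most of the step 1 level, and in anti-PD1 section 2 and PBS section 1 Cd274 was clearly lower at step 3. Cd74, the MHC class II chaperone gene of antigen-presenting cells, averaged 288 ± 142 at step 1, 139 ± 103 at step 2 and 89.4 ± 78.6 at step 3.

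Gpnmb dropped most steeply. It had 614, 638, 659 and 373 molecules per bin in the dense edge, 35.2, 41.8, 74.7 and 39.0 at step 1, and 3.95, 1.29, 2.67 and 2.63 at step 3. The sections lay closer together than for Cxcl10, and all of them lost most of the signal between the dense edge and step 2. Tgfbi, a TGF-beta-induced matrix protein gene of monocyte-derived macrophages, had 37.0, 9.71, 16.4 and 30.6 at step 1 and 3.61, 1.30, 2.87 and 6.25 at step 3.

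**Figure D2:**
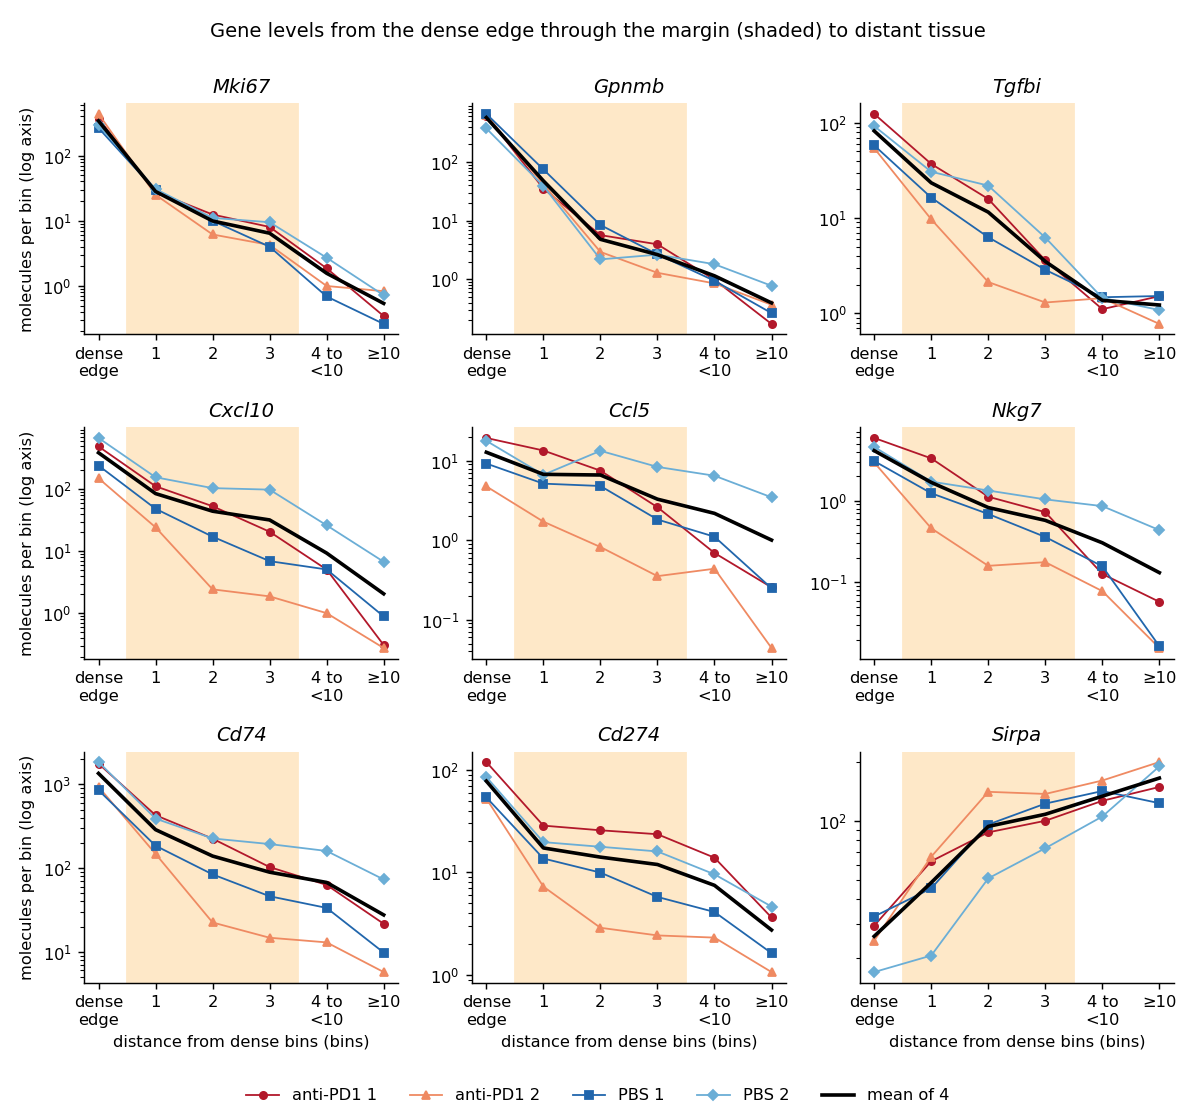
Molecules per bin (log axis) of 9 genes in the dense edge, at steps 1 to 3 of the margin (shaded), 4 to under 10 bins out and 10 or more bins out, with a line per section and the mean of 4 in black. Mki67, Gpnmb and Tgfbi fall steeply, Cd274 forms a shoulder across the margin, and Sirpa rises from a mean of 48.6 at step 1 to 109 at step 3.

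Each gene's level at step 3 was expressed as a percent of its level in the dense edge, for the 73 genes other than Mki67 and Birc5 with at least 1 molecule per dense-edge bin. The median was 16.5% (quartiles 8.98 and 35.3%). Gpnmb kept 0.49%, below Birc5 (1.45%) and Mki67 (1.98%), the genes that chose the bins. Arg1, the arginase gene of suppressive macrophages, kept 2.92%, Tgfbi 4.26%, the ribonucleotide reductase gene Rrm2 5.69%, Cxcl10 5.76%, Cd74 5.81%, and Cxcl9, the second interferon-induced chemokine, 6.96%. Close to the median gene were Cd274 (13.5%), Nkg7 (13.3%) and Ccl5 (21.9%). Sections spread widely: Cxcl10 kept 4.22, 1.25, 2.87 and 14.7% in anti-PD1 sections 1 and 2 and PBS sections 1 and 2, and Rrm2 3.74, 2.26, 3.33 and 13.4%. PBS section 2 was highest for both, and without it the means were 2.78% for Cxcl10, 3.11% for Rrm2 and 13.5% for Ccl5. In each section the Cxcl10 percentage lay below those of Cd274 and Ccl5.

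A few genes were higher at step 3 than in the dense edge. Sirpa reached 428% of its dense-edge level, the sphingosine receptor gene S1pr1 403%, the fatty acid-binding protein gene Fabp5 170%, Lag3 130% and Cd4 745%. Without PBS section 2 Lag3 stood at 98.5%, no longer above the dense edge. Lag3 and Cd4 are lymphocyte genes in name. Of the T cell genes, Cd8a stood at 41.85% of its dense-edge level at step 3, and at 15.25% without PBS section 2. The Cd8a percentage, like that of Lag3, was thus lower without this section. Cd3d stood at 8.86%, but exceeded the false-positive level in the margin in only 2 sections, so its percentage says little. Cd4 averaged 4.86, 11.3 and 16.7 molecules per bin at steps 1, 2 and 3, where Cd3d averaged 0.171, 0.0911 and 0.0299 and Cd8a 1.24, 0.439 and 0.631. Which cells carry Cd4 or Lag3 here was not tested.

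**Figure D3:**
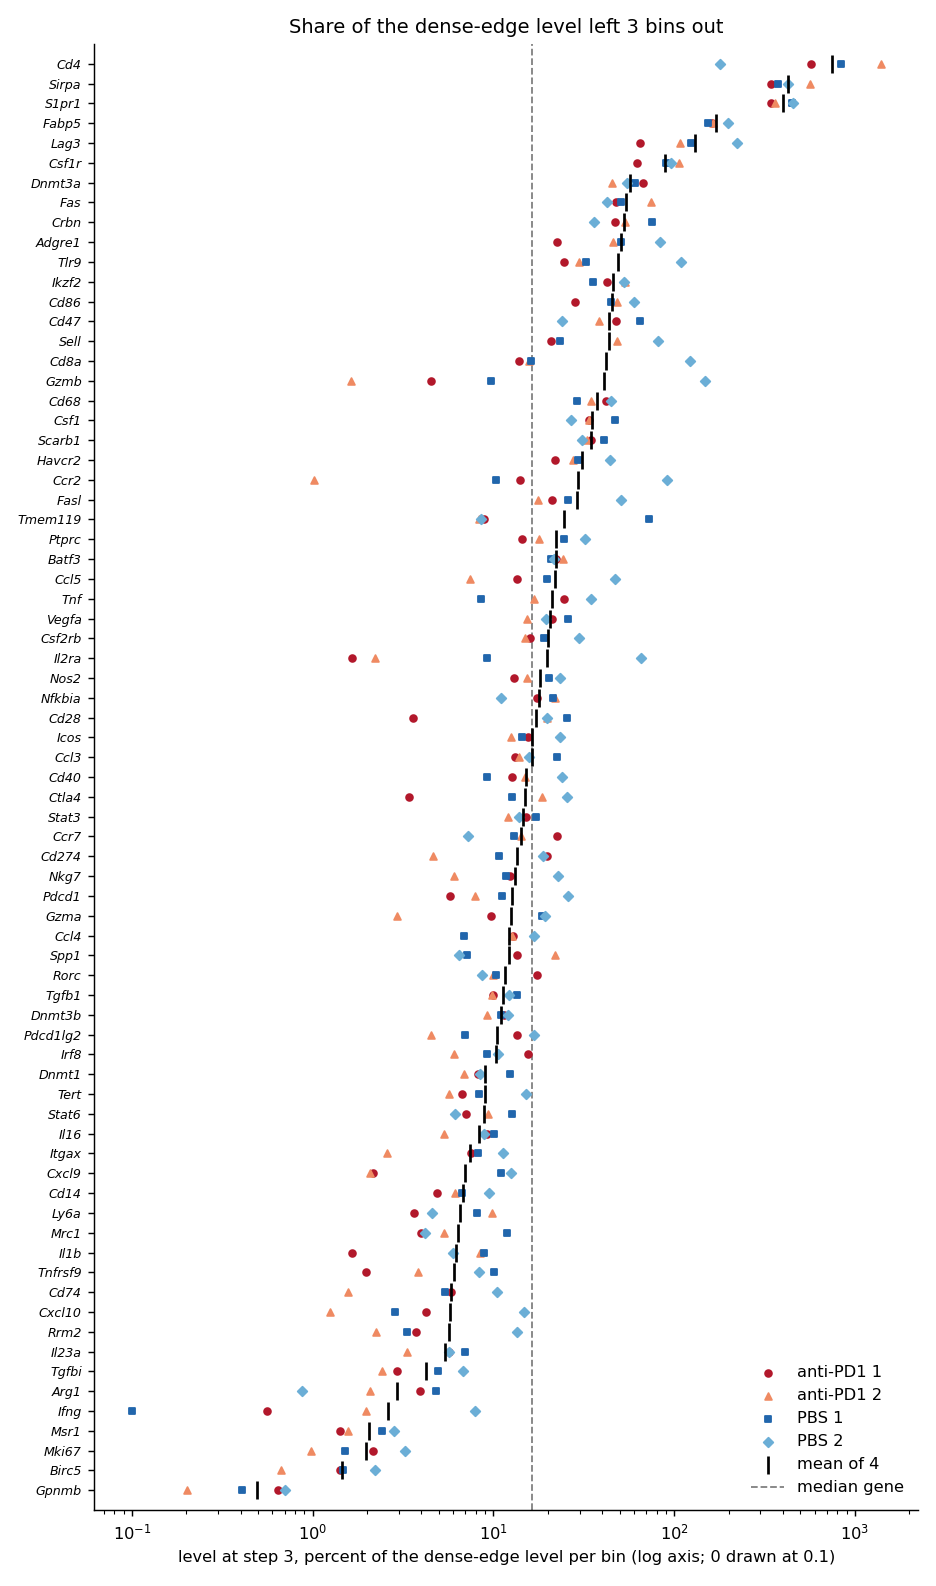
Level at step 3 as a percent of the dense-edge level per bin (log axis), for 71 of those 73 genes, with Mki67 and Birc5 added; points are the 4 sections, black ticks their mean, and the dashed line marks 16.5%, the median gene. Gpnmb, Birc5 and Mki67 lie at the bottom, Cxcl10 is near the lower end at 5.76%, and Cd4, Sirpa and S1pr1 are at the top.

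Set against distant tissue, the whole margin differed widely. Of 93 genes tested by limma, 58 (62.4%) passed at a Benjamini-Hochberg adjusted p of 0.05, 46 higher (49.5%) and 12 lower (12.9%) in the margin. Gpnmb was higher by 5.70 (SE 0.410, adjusted p = 5.99e-05), Cxcl9 by 3.47, Itgax, the CD11c gene of dendritic cells and activated microglia, by 3.26, Tgfbi by 2.98 and Rrm2 by 2.44 (adjusted p = 0.000589). Sirpa (-1.85) and its ligand gene Cd47 (-1.44) were lower. The median gene shifted by 0.92, by 1.49 per bin and by 0.04 with median-of-ratios scaling, under which 49.1% of 53 called genes were higher, against 79.3% by share and 87.3% of 63 per bin. Without PBS section 1 the count was 32.

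Since these bins also differed in Mki67 plus Birc5, margin and distant bins were weighted to the same numbers of these molecules within each section. This kept 607 bins' worth of each, 111 to 222 per section, with 2.52 Mki67 plus Birc5 molecules per margin bin and 2.43 per distant bin. Gene molecules averaged 733 and 749, but were not balanced within each section. They numbered 803, 653, 760 and 716 per margin bin in anti-PD1 sections 1 and 2 and PBS sections 1 and 2. Distant bins held 740, 652, 659 and 944. The matched comparison covers mainly bins with very few Mki67 plus Birc5 molecules.

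At equal Mki67 plus Birc5, 37 of 83 genes (44.6%) still passed, 27 higher (32.5%) and 10 lower (12%) in the margin. After Cxcl10, the genes that rose most were Gpnmb, Cxcl9 and Itgax. These shares over all genes, 32.5% higher and 12% lower, are the background for the counts by gene list that follow. The 10 that fell included both members of the Cd47 and Sirpa pair. The median gene stood at 0.50 by share and at 0.07 with median-of-ratios scaling, under which 45.2% of 31 called genes were higher, against 73.0% by share. Every gene of this comparison that the naming rule took kept its direction per bin and with median-of-ratios scaling.

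Cxcl10 had 26.2, 2.38, 10.4 and 70.3 molecules per matched margin bin in anti-PD1 sections 1 and 2 and PBS sections 1 and 2, against 0.386, 0.318, 1.84 and 10.8 in matched distant bins. Every section was higher in the margin, by a mean log2 difference of 3.56. Ccl5 had 3.13, 0.566, 2.68 and 7.01 in the margin, against 0.551, 0.0433, 0.263 and 4.36 in distant bins (2.57). Nkg7 had 0.596, 0.132, 0.506 and 0.703 in the margin, against 0.183, 0.0174, 0.0117 and 0.794 in distant bins (2.46). In PBS section 2 Nkg7 per bin was thus no higher near the tumour than far from it. These 3 genes are counted among the 27, but were picked with their values known and are given without a p.

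Of 9 genes of the interferon response and its chemokines on the panel, 7 had enough molecules to be tested. Of these 5 rose and 2 did not pass (median 1.49, against 0.50 and 32.5% higher over all genes tested). The 5 include Cxcl10, which was picked with its values known. Cd274 had 18.6, 2.80, 9.16 and 13.3 molecules per matched margin bin, against 3.33, 1.08, 1.75 and 5.99 in distant bins (1.86, SE 0.309, adjusted p = 3.91e-05). Each section's margin lay above its own distant bins. Cxcl9 rose by 2.70 (SE 0.471, adjusted p = 7.07e-05) and Irf8, a transcription factor gene of myeloid cells induced by interferon gamma, by 1.49 (adjusted p = 0.000458). The stem cell antigen gene Ly6a, also interferon-induced, stood at 0.51 (adjusted p = 0.125).

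Among myeloid genes the picture was mixed. Gpnmb had 3.81, 3.29, 6.59 and 4.01 molecules per matched margin bin, against 0.250, 0.392, 0.441 and 1.10 in distant bins (3.21, SE 0.357, adjusted p = 2.55e-07). Itgax rose by 2.67 (SE 0.390, adjusted p = 7.97e-06) and Tgfbi by 1.76 (adjusted p = 0.000458). Of the 8 monocyte and macrophage genes 3 rose (Arg1, Ccr2, Tgfbi), 1 fell and 4 did not pass (median 0.70), which is close to the shares over all genes (32.5% higher, 12% lower). The one that fell, Mrc1, encodes the mannose receptor of perivascular macrophages (-1.51, adjusted p = 0.00454). Neither microglia gene passed, with Csf1r, the receptor on which microglia depend, at 0.22 (adjusted p = 0.493) and Tmem119 at 0.50 (adjusted p = 0.189).

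For antigen presentation 1 of 4 rose and 3 did not pass. This was Cd74, with 110.2, 20.4, 66.1 and 167 molecules per matched margin bin, against 21.1, 6.01, 11.7 and 93.5 in distant bins (1.89, SE 0.242, adjusted p = 1.14e-06). Cd86, a costimulatory ligand gene, stood at 0.67 (adjusted p = 0.123) and Cd40 at 0.32. Of 7 inflammatory cytokine and NF-kB genes on the panel 5 were tested. Of these 3 rose, namely Tnf (1.71), Il1b (1.47) and the CpG receptor gene Tlr9 (0.88, adjusted p = 0.0499), and Il12a fell by 2.19 on the log2 scale. Il12a, Flt3 and Tox all fell from low levels, and Tox exceeded the false-positive codes in the margin in only 2 of the 4 sections.

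Without matching, 5 of 9 T cell genes were higher in the margin than in distant tissue, Cd3d and Cd8a among them, and 4 did not pass. This share is near the 49.5% higher over all genes tested. T cell genes did not pass in the matched margin. None of the 8 tested genes of that list was called by limma (median 0.11), with Cd8a at 0.15 (SE 0.418, adjusted p = 0.781) and Cd4 at -0.21 (adjusted p = 0.651). Cd3d, also on the panel, had too few molecules in the matched bins to be tested. By section Cd8a stood at 0.36 and 0.40 in anti-PD1 sections 1 and 2, and at 0.66 and -0.81 in PBS sections 1 and 2. Of 10 cytotoxic and NK genes on the panel 7 were tested. Of these 3 rose, Nkg7 and the granzyme genes Gzma (2.23, adjusted p = 0.00545) and Gzmb (1.99, adjusted p = 0.00889). The other 4 did not pass, against 32.5% higher over all genes. Without Nkg7, picked with its values known, 2 of 6 rose, a share near that background. The granzyme levels were near 0, with Gzma at 0.349, 0.0185, 0.260 and 0.252 molecules per matched margin bin, against 0.0532, 0.0109, 0.0360 and 0.0410 in distant bins. In anti-PD1 section 2 Gzma did not exceed the false-positive codes in the margin, and both granzyme calls were lost in the outer margin alone (adjusted p = 0.135 and 0.0679).

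Rrm2 is a proliferation gene that was not used for matching. It had 0.794, 1.09, 0.893 and 1.43 molecules per matched margin bin, against 0.745, 0.763, 0.582 and 0.908 in distant bins. Its share differed by 0.49 (SE 0.358, adjusted p = 0.261), where it had been 2.44 without matching. After matching, its difference by share was thus close to that of the median gene (0.50). Across margin bins Rrm2 followed Mki67 plus Birc5 (Spearman's rho 0.526 to 0.776), so matching on their sum acts on Rrm2 too. Its smaller difference is therefore no separate check of the matching. Per bin Rrm2 was still higher in the margin of every section. Only the sum of Mki67 and Birc5 was matched. Birc5 alone averaged 0.707 per matched margin bin and 0.941 per distant bin, and was lower in the margin of every section. Whether dividing cells were equal in both zones was not tested.

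The genes that fell at equal Mki67 plus Birc5 included Sirpa, with 90.7, 139.6, 119 and 58.4 molecules per matched margin bin, against 174, 215, 148 and 231 in distant bins (-0.95, SE 0.203, adjusted p = 0.000547). Cd47 stood at -0.72 (adjusted p = 0.00813) and the cereblon gene Crbn at -0.97. Every section was lower in the margin for these 3. Per bin Cd47 no longer passed (adjusted p = 0.0757). Without PBS section 1 the count of genes that passed was 23, and with bins of 720 pixels it was 16.

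**Figure D4:**
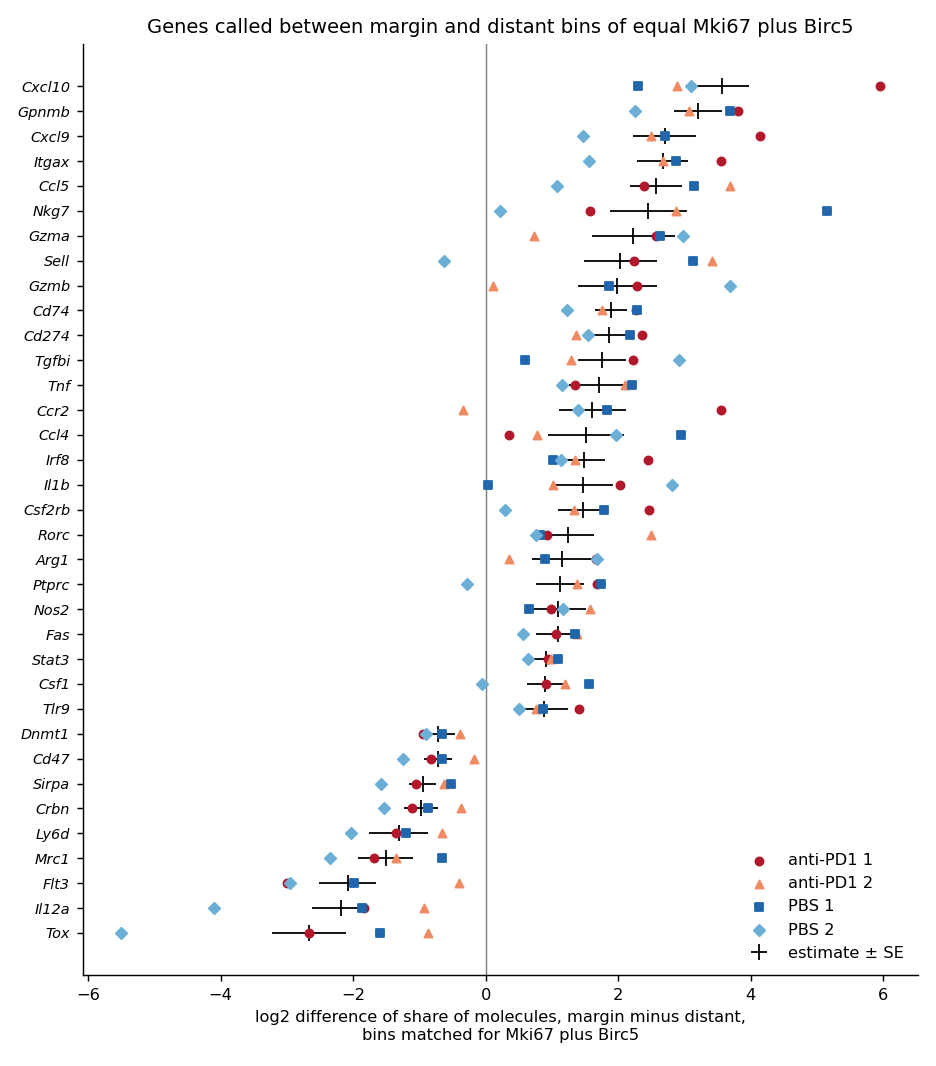
35 of the 37 genes that passed between margin and distant bins of equal Mki67 plus Birc5: log2 difference of the share of molecules, margin minus distant, per section (points) and as the limma estimate with its SE (cross). Points of 1 gene spread widely, as for Nkg7, where PBS section 1 lies at 5.16 and PBS section 2 at 0.22, while Cd74 and Cd274 are above 0 in every section.

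Within the margin, step 1 and step 3 were compared at equal Mki67 plus Birc5 as well. This used 207 bins' worth of each, 39 to 59 per section, with 11.3 Mki67 plus Birc5 molecules per bin at step 1 and 11.1 at step 3. Gene molecules averaged 798 and 803. By section they numbered 1114, 670, 644 and 765 at step 1 in anti-PD1 sections 1 and 2 and PBS sections 1 and 2. At step 3 they numbered 962, 682, 651 and 915. Of 76 genes 19 (25.0%) passed, 11 higher (14.5%) and 8 lower (10.5%) at step 1. The split depended on the scaling: with median-of-ratios scaling 16 passed, 6 higher and 10 lower (37.5% higher, against 57.9% by share), and the median gene stood at 0.08, against 0.37 by share. Gpnmb, Arg1 and Msr1 rose most by share, and Cd274 did not pass.

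Gpnmb had 16.6, 14.3, 23.1 and 13.7 molecules per matched bin at step 1, against 4.998, 1.43, 2.58 and 2.98 at step 3 (2.63, SE 0.251, adjusted p = 1.07e-05). The sections did not overlap between the steps. Tgfbi had 24.6, 4.35, 6.33 and 17.6 at step 1, against 3.96, 1.42, 3.10 and 6.39 at step 3 (1.71, SE 0.205, adjusted p = 6.56e-05). Arg1 was higher by 2.63 (adjusted p = 0.0059), the scavenger receptor gene Msr1 by 2.40, Itgax by 1.03, Cd74 by 1.01 and Irf8 by 0.54. Of 8 monocyte and macrophage genes 3 rose, none fell and 5 did not pass (median 1.05, against 0.37 and 14.5% higher over all genes tested).

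Among checkpoint genes, Tnfrsf9, which encodes the costimulatory receptor 4-1BB, was higher at step 1 by 1.51 and Pdcd1, which encodes PD-1, by 1.48, and Lag3 was lower (-0.74). Pdcd1 was sparse, with 0.888, 0.267, 0.747 and 0.507 molecules per matched bin at step 1, against 0.150, 0.144, 0.170 and 0.424 at step 3. The calls of Arg1, Msr1, Tnfrsf9 and Pdcd1 were lost in the outer margin alone, that is, without gaps, small clusters and image edges.

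Cd274 and Cxcl9 did not pass between the steps. Cd274 had 21.0, 4.82, 10.7 and 13.8 molecules per matched bin at step 1, against 24.98, 2.48, 5.002 and 16.8 at step 3 (0.40, SE 0.237, adjusted p = 0.222). In anti-PD1 section 1 and PBS section 2 Cd274 was lower at step 1, and in the other 2 sections higher. Cxcl10 had 65.2, 8.48, 20.3 and 77.8 at step 1, against 25.8, 1.72, 7.29 and 107 at step 3 (1.19). Cxcl10 is counted among the 11 and, having been picked with its values known, is given without a p. It too was lower at step 1 in PBS section 2, and Cxcl9 stood at 0.87 (adjusted p = 0.108).

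Genes lower at step 1 were Cd4 (-1.14, adjusted p = 0.000546), S1pr1 (-0.89), Lag3, Sirpa (-0.65), the HDL receptor gene Scarb1 (-0.63), Crbn (-0.61), Cd47 (-0.57) and the DNA methyltransferase gene Dnmt3a (-0.56). Each was lower in all 4 sections. Rrm2 stood at -0.34 (adjusted p = 0.286). The count of 19 rested on few bins: it was 6 without PBS section 1, 10 without anti-PD1 section 1, 12 without anti-PD1 section 2, and 4 without a trend in the variance model.

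Coarse classes of bins give the levels of these genes at each distance. Among bins with under 5 Mki67 plus Birc5 molecules (145, 220, 223, 1488 and 2091 bins), Cd274 averaged 10.4, 10.5, 9.75, 6.81 and 2.70 molecules per bin at steps 1, 2 and 3, at 4 to under 10 bins and in distant tissue. Over the same places Cxcl10 averaged 22.2, 30.8, 18.2, 6.60 and 1.66. The Cd274 means were level across the margin and lower beyond it, but the sections moved both ways. From step 1 to step 3 Cd274 went from 17.2 to 18.6 in anti-PD1 section 1 and from 10.8 to 11.6 in PBS section 2. It fell from 4.22 to 2.38 in anti-PD1 section 2 and from 9.37 to 6.48 in PBS section 1. For Cxcl10 the mean rested on PBS section 2 (37.8, 81.7 and 51.8 at steps 1, 2 and 3), without which it fell across the margin (17.0, 13.9 and 7.06). Gpnmb averaged 6.83, 3.15, 2.07, 0.979 and 0.389, lower at each distance than at the one before. Tgfbi averaged 9.16, 4.99, 2.38, 1.17 and 1.20, with no further fall beyond 4 bins. Its step 1 mean was 5.49 without anti-PD1 section 1, and its step 2 mean 3.08 without PBS section 2, where step 2 (10.7) was not below step 1 (9.87). Sirpa averaged 77.1, 106, 117, 135 and 163. In bins with 20 to 99 such molecules, Gpnmb stood at 68.1 at step 1 (544 bins) and 9.03 at step 2 (87 bins), and Cxcl10 at 109.7 and 50.9.

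**Figure D5:**
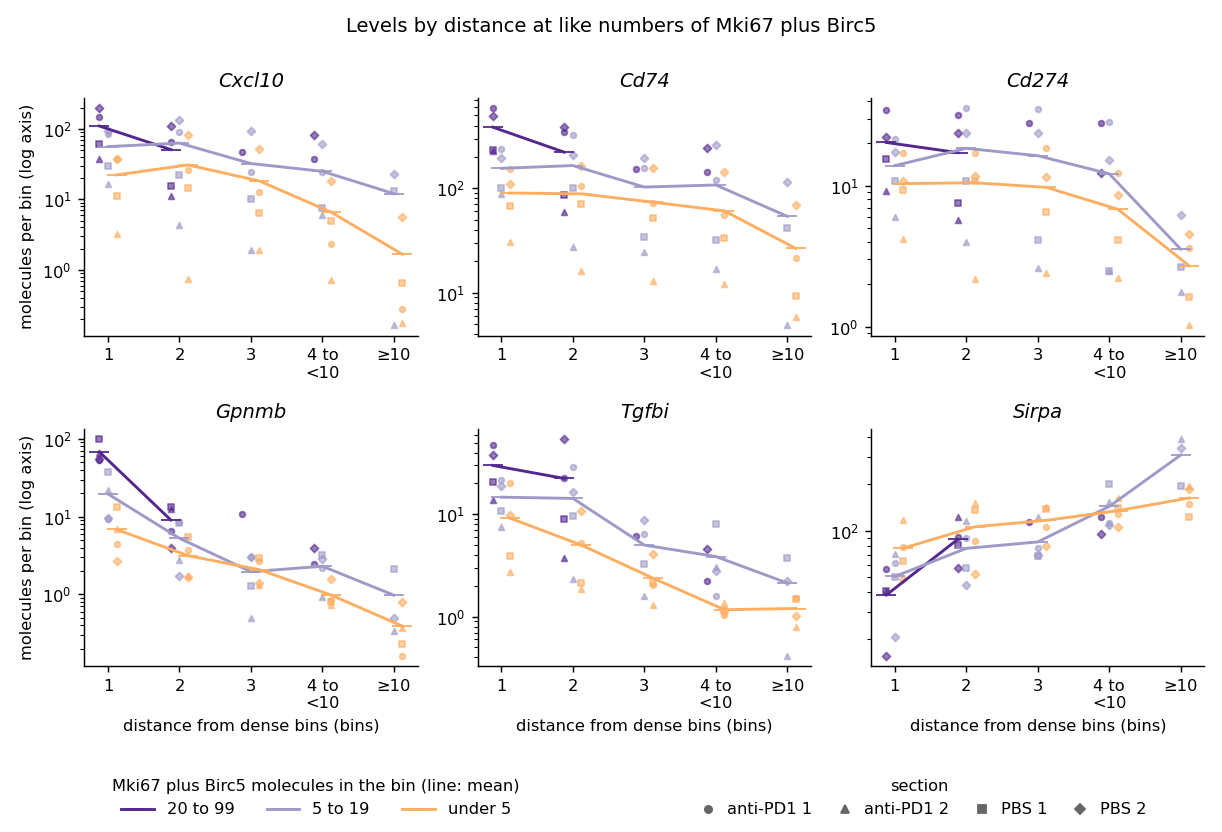
Molecules per bin (log axis) of 6 genes by distance, within classes of bins holding 20 to 99, 5 to 19 or under 5 molecules of Mki67 plus Birc5; points are sections, and lines join means where at least 3 sections had 10 bins. In the class under 5, the Cd274 mean is level across the margin (10.4 at step 1, 9.75 at step 3) over sections that moved both ways. The Gpnmb mean declines from 6.83 to 2.07.

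Single margin bins varied widely. Cxcl10 was seen in 55.0 to 97.7% of the margin bins of a section, Ccl5 in 28.1 to 78.8% and Nkg7 in 8.96 to 31.9%, against 0.831 to 10.5% of distant bins for Nkg7. The 10% of margin bins with the most Cxcl10 held 46.2 to 77.4% of its margin molecules, and the single highest bin held 343 to 1196. For Cd274 this share was 33.2 to 46.8%.

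Across the margin bins of a section (n = 306 to 523), Spearman's rho of Cxcl10 was 0.388 to 0.620 with Mki67 plus Birc5, 0.537 to 0.589 with Cd274, 0.233 to 0.663 with Ccl5 and 0.211 to 0.517 with Nkg7. Cxcl10 also followed the bin's gene molecules (0.267 to 0.682), which all these pairs share. Gpnmb followed Mki67 plus Birc5 at 0.529 to 0.663 and Ccl5 at 0.044 to 0.399 did so less, as descriptions of neighbouring bins that are not independent.

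Against the dense edge, 47 of 95 genes (49.5%) passed by share, 41 higher (43.2%) and 6 lower (6.32%) in the margin, a contrast that the choice of bins by Mki67 and Birc5 made and from which nothing is read. The values nonetheless describe the edge. Cd4 (3.98), Sirpa (3.86) and S1pr1 (3.72) had the largest rise in share outside, and Gpnmb (-1.97) and Rrm2 (-1.12) the largest fall. Ccl5 stood at 1.12, Nkg7 at 0.43, Cd274 at -0.07 and Cxcl10 at -0.42. Per bin the same comparison gave 87 genes, 3 higher and 84 lower, so the rise in share is against a smaller total.

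Between treatments, no gene passed in the margin for anti-PD1 against PBS by limma (0 of 94, 0.0%, with 2 at an unadjusted p under 0.05). Those 2 were Cd4 (2.04, SE 0.680, adjusted p = 0.572) and Spp1, the osteopontin gene (-2.05, adjusted p = 0.919). Cxcl10 stood at -1.17, Ccl5 at -0.92, Nkg7 at -0.61, Gpnmb at -0.80 and Cd274 at -0.36, and the 2 sections of a treatment differed widely. Without anti-PD1 section 1, 5 genes passed, all lower with anti-PD1. For the margin-minus-distant difference no gene passed between treatments either (0 of 93, 0.0%, with 4 at an unadjusted p under 0.05). There Cxcl10 stood at 1.83 and Ccl5 at 2.12, and both, picked with their values known, are given without a p.

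The rule was then applied to the 4 sections given CpG-STAT3ASO or the combination, which the rule leaves out. There 2812 bins met it (539 and 691 in CpG-STAT3ASO sections 1 and 2, 514 and 1068 in combination sections 1 and 2). Dense bins were few there, with 23, 33, 22 and 78 in the same order, all of them in the dense edge. Their median Mki67 plus Birc5 was 121, 130, 125 and 117.5, not far above the dense limit. The dense edge held 626 to 858 bins per section without CpG-STAT3ASO. The bins called margin here surround these few dense bins and made up 23.0, 31.4, 23.6 and 44.4% of the tissue bins. Whether they compare with the margin of the other sections was not tested. At equal Mki67 plus Birc5 (1115 bins' worth), 48 of 91 genes (52.7%) passed between margin and distant bins, 34 higher (37.4%) and 14 lower (15.4%). Matched margin bins averaged 7.68 Mki67 plus Birc5 molecules here, against 2.52 in the sections without CpG-STAT3ASO, so the 2 sets are not alike in this. Gene molecules numbered 737, 1108, 739 and 1508 per matched margin bin in the same order of sections, against 717, 866, 781 and 1222 per distant bin. Of the 83 genes tested in both sets of sections, 37 passed without CpG-STAT3ASO and 46 with it. In both sets 29 passed in the same direction, 21 higher and 8 lower, which is 78.4% of the 37 and 63.0% of the 46. Calls were thus common in each set, and whether 29 exceeds the overlap expected by chance was not tested. With the dense limit at 200 molecules the count with CpG-STAT3ASO was 0 by limma, with 18 at an unadjusted p under 0.05.

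Cxcl10 had 6.57, 18.5, 3.35 and 44.6 molecules per matched margin bin in that order of sections, against 2.04, 3.0, 0.908 and 11.4 in distant bins of the same sections (1.89, SE 0.142, adjusted p = 0.000254). Ccl5 had 33.4, 29.9, 15.5 and 62.0 in the margin, against 5.69, 2.39, 1.74 and 14.7 in distant bins (2.70, SE 0.268, adjusted p = 0.00046). Both were higher in the margin of every section. Nkg7 had 0.353, 1.30, 0.444 and 3.21 in the margin, against 0.376, 0.0909, 0.228 and 2.63 in distant bins, and did not pass (1.09, adjusted p = 0.204). Gpnmb rose by 3.97 (adjusted p = 7.53e-06), Msr1 by 3.61, Arg1 by 3.46 and Tgfbi by 2.90. Rrm2, which did not pass without CpG-STAT3ASO, rose here by 1.28 (adjusted p = 0.00328). Whether these differences between the 2 sets of sections exceed their spread was not tested.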

How the data were processed

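Molecule positions were measured by Resolve single-molecule fluorescence in situ hybridization, per the labels. The deposited files list x, y and z positions and a target name for each molecule, as called by the authors. How spots were called and images registered is not stated. Seurat 4.2.0 is named in the submitters' processing notes without its role. Targets with FP in their name, 28 in all, were taken for false-positive codes, a reading no source states, and dropped from gene values. The section titled with aPD2 was taken as the second anti-PD1 section.

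Molecules were tallied per gene and bin (Python 3.11.15, numpy 2.4.6, pandas 2.3.3, scipy 1.17.1) and summed over the bins of a zone in each section. Zone totals were scaled to a share of 1000000 molecules, and log2 of that share plus 1 was fitted by limma 3.58.1 in R 4.3.3 (lmFit, eBayes with trend, section as block within sections). Genes needed a mean of 10 molecules per zone total. Mki67 and Birc5 were left out of the tests. Adjusted p-values are Benjamini-Hochberg values over all genes tested, two-sided, with a threshold of 0.05. The code was tested on simulated data.

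For matching, bins fell into 15 classes of Mki67 plus Birc5, and each class was weighted in both zones to the smaller of the 2 bin numbers. Alternatives were scaling per bin or by median-of-ratios size factors, totals without Mki67 and Birc5, other pseudocounts, filters, bin sizes, dense and tissue limits, distances and classes, small dense clusters dropped, no trend, each section left out, and the replicate number as a block.

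The margin, its marker genes and the gene lists were chosen with earlier results of these data known. Named genes are Cxcl10, Nkg7, Ccl5, Mki67 and Birc5, up to 10 genes each way per comparison with the largest change among those that passed with the same sign in every section, and from each list the 3 members most abundant in the margin. Others (Cd3d, Cd8a, Tnf, Tbx21 and the genes named as lowest or highest at step 3) were chosen after their values were seen. Some genes that entered the fits and counts are not reported here. The replicate numbers were not taken to pair sections.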

Additional observations from a re-analysis of the deposited data

Results flagged for a closer look

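Of 102 sets of 4 section values checked, 4 held a section far from the other 3, where chance gives about 1 in 20. For Itgax, margin minus distant, PBS section 2 stood at 1.59 and the other 3 sections at 3.63 to 3.93. For Tox, margin minus dense edge, anti-PD1 section 2 stood at 4.39 and the others at 1.99 to 2.38. In the same comparison and section, Nkg7 stood at -0.58 (others 0.62 to 0.86) and Ccl5 at 0.61 (others 1.25 to 1.34). All values are log2 differences of the share of molecules.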

How the results depend on the processing

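Bins of 1 section are not replicates, and 4 sections set the precision. Margin against distant tissue gave 32 (without PBS section 1) to 61 called genes when a section was left out, and the matched comparison 23 (without PBS section 1) to 39, with 16 at 720 pixels. Step 1 against step 3 was least stable, with 6 to 25 when a section was left out, 4 without trend, 32 at 180 pixels, 5 with a dense limit of 200, 8 with small clusters dropped and 2 with bins under 3 Mki67 plus Birc5 alone. Margin against dense edge gave 87 per bin and 29 (without PBS section 1) to 53 with a section left out, 30 without anti-PD1 section 1. The cause was not tested. For anti-PD1 against PBS the count was 0 to 5 with a section left out, and 0 to 2 for the margin-minus-distant difference. With CpG-STAT3ASO it was 36 to 49 with a section left out, and 0 at a dense limit of 200. The share of bins in the margin differed by -6.81 points at a dense limit of 200 and by -6.86 to 2.50 with a section left out.

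Directions turned for Ly6d (0.0068, distant tissue from 15 bins, matched), for Il12a (-0.25), Lag3 (-0.27), Csf1r (-0.32), Fas (-0.84) and Ccl5 (-1.32) against the dense edge per bin, and, with CpG-STAT3ASO, for Spp1 (-0.20, dense limit 200) and Flt3 (0.38, dense limit 50). In the outer margin alone, an alternative chosen after seeing the data, the counts were 56, 35 matched, 16 between steps and 44 against the dense edge. The replicate number as a block left 0 genes for both treatment comparisons. Deviations of same-numbered sections correlated at -0.58, so the crossed pairing, added after seeing the data, was run too and called 8 and 0 genes. Step 1 against step 3 at 720 pixels, and the comparison with CpG-STAT3ASO at 180 and 720 pixels and with small clusters dropped, could not be run for lack of bins.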
